A study of Rattus norvegicus with 304 samples.

Results

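The livers compared here were taken 240 h after a single oral dose of TCDD, the most potent of the dioxins, at 100 µg/kg, or of the corn oil vehicle alone (0 µg/kg). All animals were male rats aged 10-12 weeks, of the Long-Evans strain (labelled TCDD-sensitive) or the Han/Wistar strain (labelled TCDD-resistant). Of 304 samples in the series, 39 were from 240 h and were chosen by that time, dose and strain: 19 on the OpenArray, a chip for parallel real-time PCR, with 5 samples a group except 4 for Long-Evans corn oil, and 20 on the 7900HT instrument, with 5 a group. The platforms share 19 sample titles at 240 h, so they are not independent sets of animals. All 49 targets of the OpenArray and all 39 of the 7900HT were measured, 50 in all, of which 38 were on both.

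The authors deposited 1 value per target and group, a log2 fold change against the strain's own corn oil group at 19 h. A difference below is the TCDD value at 240 h minus the corn oil value at 240 h, in log2 units, so that 1 is 2-fold, and "past 2-fold" means a difference of at least 1 in size. No spread between animals could be computed from these group values, so no difference has a standard error or a test. In its place, the range of the strain's corn oil groups over time is given for some targets. It covers 5 groups in Han/Wistar and 3 in Long-Evans. Whole liver was assayed, so a change in the cells' make-up and a change of RNA per cell cannot be told apart. Of the hepatocyte markers listed, Mug1 alone was on the OpenArray, and no marker of Kupffer cells, stellate cells, endothelium, cholangiocytes, lymphocytes or neutrophils was on either panel, so the tissue label could not be checked further.

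The aryl hydrocarbon receptor (AHR) is a ligand-activated transcription factor. When TCDD binds it, AHR moves to the nucleus, pairs with ARNT and binds dioxin response elements, whose core letters are GCGTG, near genes of drug metabolism. The Ahrr product, the AHR repressor, and the Tiparp product, an ADP-ribosyltransferase, both act back on the receptor. Han/Wistar rats of the resistant line are known to carry an altered receptor with a changed transactivation domain, and the sensitive strain wastes and dies at doses the resistant one survives.

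At 240 h more OpenArray targets lay past 2-fold in the sensitive strain than in the resistant one. In Long-Evans, 25 of 49 targets were past 2-fold higher after TCDD (51.0%) and 8 lower (16.3%). In Han/Wistar, 18 were higher (36.7%) and 4 lower (8.16%). The median difference over all targets was 1.09 in Long-Evans and 0.55 in Han/Wistar. The same 18 targets were higher in both strains, 3 (Fmo1, Glud1 and Inmt) were lower in both, 15 were past 2-fold in neither, and none went opposite ways past 2-fold. Of the 21 targets past 2-fold in both strains, the size was greater in Long-Evans for 19, and greater in Han/Wistar for Cyp1a2 and Mawbp. The corn oil range was smaller than the difference for all 33 such targets of Long-Evans and for 21 of 22 of Han/Wistar, where Exoc3 was the exception. The 7900HT did not share this order of the strains. There, 31 of 38 targets (81.6%) were past 2-fold in either direction in Han/Wistar, and 28 of 39 (71.8%) in Long-Evans. Of its 23 targets past 2-fold in both strains, the size was greater in Long-Evans for 12.

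The OpenArray counts depend on what zero is. Centring each group on its median over the panel lowered every difference by 0.40 in Han/Wistar and 0.82 in Long-Evans, after which Han/Wistar had 14 targets higher and 8 lower, and Long-Evans 20 and 10. Centring on the mean lowered them by 1.00 and 1.48, after which Han/Wistar had 11 higher and 16 lower, and Long-Evans 15 and 22. Under both centrings and with 2 other corn oil references, Han/Wistar kept 11 targets past 2-fold higher and 4 lower in every setting, and Long-Evans 15 and 7.

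**Figure D1:**
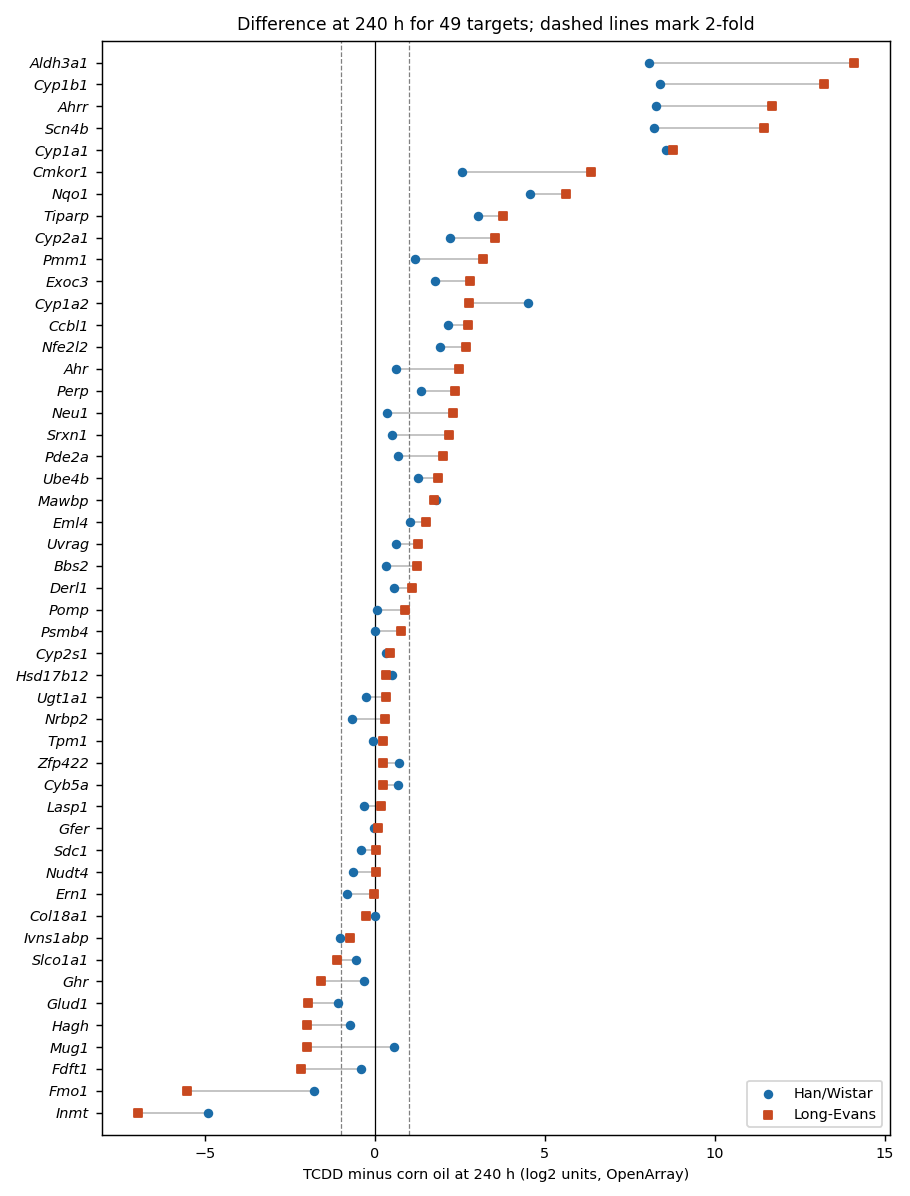
TCDD minus corn oil at 240 h on the OpenArray, in log2 units, for 49 targets ordered by the Long-Evans value. Circles are Han/Wistar, squares are Long-Evans, each a single group value, and dashed lines mark 2-fold. Aldh3a1, Cyp1b1, Ahrr, Scn4b and Cyp1a1 lie beyond 8 in both strains, and Mug1 lies on opposite sides of 0.

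The AHR battery, a list of genes linked to the receptor, held most of the largest differences, with Scn4b and Cmkor1 from outside it. The list was chosen with earlier results of these data known, so its large differences are no independent result. Of 12 battery targets on the OpenArray, 9 were past 2-fold higher and 2 lower in each strain. Over all targets the shares were 51.0% higher and 16.3% lower for Long-Evans, and 36.7% and 8.16% for Han/Wistar. The battery had a median difference of 3.28 in Long-Evans and 3.77 in Han/Wistar. The P450 Cyp1a1, which oxidises planar aromatic compounds, stood in the authors' deposited table at 1.27 in Han/Wistar corn oil and 9.84 after TCDD, and at 0.51 and 9.29 in Long-Evans. Its difference was 8.57 in Han/Wistar, or 379-fold, and 8.78 in Long-Evans, or 438-fold. The differences of the strains lay 0.21 apart for this gene, whose corn oil groups spanned 4.95 in Han/Wistar and 2.16 in Long-Evans. For Cyp1a2, the related P450 of caffeine and arylamine metabolism, the authors' deposited table had -0.69 in Han/Wistar corn oil and 3.83 after TCDD, against 0.14 and 2.90 in Long-Evans. The difference was larger in Han/Wistar (4.51) than in Long-Evans (2.76).

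Cyp1b1, Aldh3a1 and Ahrr had the largest differences in Long-Evans together with Scn4b, and in all of them the corn oil level moved. Cyp1b1, a P450 that is barely expressed in untreated liver, was at 5.05 in Han/Wistar corn oil and 13.44 after TCDD in the authors' deposited table, against -0.95 and 12.28 in Long-Evans. Its difference was 8.39 in Han/Wistar, and 13.22 in Long-Evans. The zero of the deposited scale was set separately for the strains, so these values do not show which strain had more of a transcript. Aldh3a1, an aldehyde dehydrogenase, stood at 2.62 and 10.69 in Han/Wistar and at -3.26 and 10.83 in Long-Evans, by the authors' deposited table. Its difference was 8.07 in Han/Wistar, and 14.10 in Long-Evans. Ahrr was at 2.29 and 10.58 in Han/Wistar and at 0.0027 and 11.69 in Long-Evans, by the authors' deposited table, a difference of 8.29 against 11.68. The corn oil groups over time spanned 6.17 for Aldh3a1 and 6.15 for Cyp1b1 in Han/Wistar, while in Long-Evans they spanned 5.14 and 3.73.

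Nqo1, a quinone reductase, went from -0.27 to 4.29 in Han/Wistar and from -0.20 to 5.44 in Long-Evans, by the authors' deposited table. The difference was 4.55, or 23.5-fold, in Han/Wistar and 5.64, or 49.8-fold, in Long-Evans, with corn oil near 0 in both. Tiparp had 3.76 in Long-Evans, against 3.03 in Han/Wistar. In the same order, Nfe2l2, which encodes the oxidative stress factor NRF2, differed by 2.68 and 1.94, and the exocyst subunit gene Exoc3 by 2.81 and 1.79. All 4 were larger in Long-Evans, by 0.73 to 1.08.

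Inmt and Fmo1 were the 2 battery targets that were lower. Inmt, an indole N-methyltransferase, was at 0.77 in Han/Wistar corn oil and -4.13 after TCDD, and at 1.17 and -5.80 in Long-Evans, by the authors' deposited table. That is 29.8-fold lower in Han/Wistar and 126-fold lower in Long-Evans. Fmo1, a flavin monooxygenase of drug metabolism, was at -0.18 and -1.96 in Han/Wistar and at 0.24 and -5.28 in Long-Evans, by the authors' deposited table. It was 3.44-fold lower in Han/Wistar and 46.1-fold lower in Long-Evans, while its corn oil groups spanned 0.22 and 0.27. Ugt1a1, which conjugates bilirubin, was past 2-fold in neither strain, at -0.25 and 0.33.

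The receptor gene itself was past 2-fold higher after TCDD in Long-Evans and not in Han/Wistar. Ahr was at -0.57 in corn oil and 0.05 after TCDD in Han/Wistar, and at -0.29 and 2.20 in Long-Evans, by the authors' deposited table. Its difference was 0.62 in Han/Wistar and 2.49, or 5.62-fold, in Long-Evans, against corn oil ranges of 0.72 and 0.71.

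Since many members shared a direction in both strains, the start-site sequences were searched for GCGTG on either strand, from 250 bases before to 50 after each start in RefSeq's promoter table (GRCr8). Of 50 panel genes, 43 had an entry, and 20 of those held the motif (46.5%), against 29.7% of the 33469 promoters in the table. By response, it was in 9 of the 16 targets higher in both strains, 1 of 3 lower in both, 2 of 6 higher past 2-fold in Long-Evans alone, none of 4 lower in Long-Evans alone, and 6 of 12 past 2-fold in neither. The shares among targets higher in both strains and among those past 2-fold in neither lay close together, and matches on opposite strands could overlap. The windows of 3 genes are shown, for a repressor higher in both strains, for the gene with the largest TCDD part of its strain gap, a quantity given below, and for the lowest gene. They are on GRCr8 at chr1:30821969-30822268 (plus strand, Ahrr, 3 matches), chr9:98247104-98247403 (plus strand, Cmkor1, 3 matches) and chr4:85652706-85653005 (minus strand, Inmt, no match), 5′ to 3′, with GCGTG in capitals.
Ahrr: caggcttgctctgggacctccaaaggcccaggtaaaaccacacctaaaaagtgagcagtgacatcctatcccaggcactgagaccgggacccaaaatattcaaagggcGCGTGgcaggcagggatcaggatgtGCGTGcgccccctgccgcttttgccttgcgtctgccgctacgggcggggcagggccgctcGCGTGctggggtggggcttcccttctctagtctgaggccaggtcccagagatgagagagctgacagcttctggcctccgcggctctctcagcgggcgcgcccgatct
Cmkor1: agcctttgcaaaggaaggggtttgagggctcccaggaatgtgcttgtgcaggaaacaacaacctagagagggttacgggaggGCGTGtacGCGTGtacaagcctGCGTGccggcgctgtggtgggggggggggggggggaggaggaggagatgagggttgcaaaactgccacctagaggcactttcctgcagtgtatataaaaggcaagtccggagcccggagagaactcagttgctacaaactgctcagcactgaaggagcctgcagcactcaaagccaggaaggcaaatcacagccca
Inmt: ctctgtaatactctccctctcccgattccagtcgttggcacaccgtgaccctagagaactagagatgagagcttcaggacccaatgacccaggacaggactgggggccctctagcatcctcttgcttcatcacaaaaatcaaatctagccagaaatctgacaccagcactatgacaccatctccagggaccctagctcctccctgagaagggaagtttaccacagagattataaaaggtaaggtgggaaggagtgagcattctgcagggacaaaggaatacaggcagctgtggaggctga

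Outside the battery, 2 membrane protein genes stood highest. Scn4b, a sodium channel beta subunit, was at 2.42 in Han/Wistar corn oil and 10.64 after TCDD, and at -0.52 and 10.93 in Long-Evans, by the authors' deposited table. Its difference was 8.23 in Han/Wistar and 11.45 in Long-Evans. Cmkor1, an older symbol for the atypical chemokine receptor gene Ackr3, was at 0.12 and 2.67 in Han/Wistar and at 0.35 and 6.73 in Long-Evans, by the authors' deposited table. It was 5.89-fold higher in Han/Wistar and 83.1-fold higher in Long-Evans, against corn oil ranges of 1.14 and 0.76. Its promoter window above held 3 motif matches, as many as that of Ahrr. Gfer, Nudt4 and Pomp, past 2-fold in neither strain on the OpenArray, also had 3 each. At least 2 matches were found in 4 of 16 targets higher in both strains and in 4 of 12 past 2-fold in neither.

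Genes of amino acid and sugar metabolism split into higher and lower members. Of 5, 3 were higher in each strain, beside 51.0% of all targets in Long-Evans and 36.7% in Han/Wistar: Pmm1, a phosphomannomutase that feeds glycosylation (1.17 in Han/Wistar, 3.20 in Long-Evans), Ccbl1, a kynurenine aminotransferase now named Kyat1 (2.17 and 2.74), and Mawbp, now Pbld1 (1.81 and 1.74). Glud1, the mitochondrial glutamate dehydrogenase, was lower in both, at -1.08 and -1.95. Hagh, the glyoxalase that hydrolyses lactoylglutathione, was past 2-fold lower in Long-Evans only, at -1.99, against -0.72 in Han/Wistar. The list's median was 1.17 in Han/Wistar and 1.74 in Long-Evans, beside 0.55 and 1.09 over all targets.

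Targets lower on the OpenArray in Long-Evans and not past 2-fold in Han/Wistar were 5: Fdft1, Ghr, Slco1a1, Mug1 and Hagh. Fdft1, the squalene synthase of the cholesterol pathway, differed by -0.42 in Han/Wistar and -2.17 in Long-Evans. Ghr, the growth hormone receptor, differed by -0.32 and -1.57, and Slco1a1, an organic anion uptake transporter, by -0.54 and -1.10. On the 7900HT Slco1a1 was past 2-fold lower in both strains. The size there was greater in Han/Wistar, where it did not exceed its corn oil range. Mug1, a plasma protease inhibitor made by the liver, was at -0.53 in Han/Wistar corn oil and 0.03 after TCDD, and at 0.65 and -1.36 in Long-Evans, by the authors' deposited table. It differed by 0.56 in Han/Wistar and -2.00 in Long-Evans, the only target with opposite signs whose strain gap passed 2-fold on the OpenArray. Centring on the mean, which lowered every Han/Wistar OpenArray difference by 1.00, put Mug1 at -0.44, on the same side of 0 as Long-Evans. Against corn oil at 19 h it was 0.03 in Han/Wistar. Hagh is given above. The one target lower in Han/Wistar alone was Ivns1abp, an actin-binding protein gene, at -1.01, against -0.73 in Long-Evans.

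Targets higher on the OpenArray in Long-Evans and not past 2-fold in Han/Wistar were 7. Besides Ahr they were Neu1, the lysosomal sialidase (0.37 in Han/Wistar, 2.30 in Long-Evans), Srxn1, the sulfiredoxin that repairs oxidised peroxiredoxins (0.51 and 2.18), Pde2a, a cyclic nucleotide phosphodiesterase (0.70 and 2.01), Uvrag of autophagy (0.62 and 1.27), Bbs2 of the cilium (0.32 and 1.24) and Derl1 of protein export from the endoplasmic reticulum (0.55 and 1.09). The last 3 turned negative in Long-Evans when the groups were centred on their mean. On the 7900HT, Neu1, Pde2a and Uvrag were past 2-fold higher in Long-Evans alone, and Ahr and Srxn1 in both strains. Srxn1 was at 2.54 there in Han/Wistar and 1.57 in Long-Evans. Derl1 was past 2-fold higher there in Han/Wistar alone (1.81, against 0.59), without exceeding its corn oil range. Bbs2 was not on that platform. Of 7 OpenArray targets for the lysosome, trafficking and other functions, 4 were higher in Long-Evans and 0 in Han/Wistar, where the shares over all targets were 51.0% and 36.7%. Of 6 OpenArray targets of protein quality control, Ube4b, a ubiquitin ligase, was higher in both strains (1.27 and 1.85). Psmb4, Pomp, Ern1 and Gfer were past 2-fold in neither on that platform. On the 7900HT Ern1 was lower by 4.07 in Han/Wistar and 2.51 in Long-Evans, beyond its corn oil range in each. Pomp was past 2-fold lower there in Han/Wistar, without exceeding its corn oil range.

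Cyp2a1, a P450 of steroid metabolism, was higher in both strains, at 3.54 in Long-Evans, against 2.20 in Han/Wistar. Perp, a target gene of p53, was at 2.36 and 1.38, and Eml4, which binds microtubules, at 1.51 and 1.04. Of 6 cytoskeleton and matrix targets, Eml4 was the only one past 2-fold higher in each strain, beside 51.0% of all targets in Long-Evans and 36.7% in Han/Wistar. Of the others, Lasp1, Sdc1, Tpm1 and Col18a1 were past 2-fold in neither on the OpenArray. On the 7900HT Lasp1, Sdc1 and Tpm1 were past 2-fold lower in Han/Wistar, without exceeding their corn oil ranges. Col18a1 was past 2-fold there in opposite directions in the strains.

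The strain gap, the Long-Evans difference minus the Han/Wistar difference, was at least 2-fold above 0 for 13 of 49 targets (26.5%) and at least 2-fold below for 7 (14.3%). The gap can be written as a TCDD part and a corn oil part, each the gap between values set to 0 at the strain's own corn oil group at 19 h. The split depends on that reference and does not measure a distance between the strains' levels. For 4 targets most of the gap lay in the corn oil part: Aldh3a1 had a gap of 6.03, of which 5.89 came from corn oil, Cyp1b1 4.84, of which 6.00 came from corn oil and -1.16 from TCDD, Scn4b 3.23, of which 2.94 came from corn oil, and Ahrr 3.40, of which 2.29 came from corn oil. Measured against corn oil at 19 h, the Cyp1b1 gap was -1.16, so its direction rests on the corn oil group. For 16 of the 20 targets the TCDD part alone was at least 2-fold in the direction of the gap. Cmkor1 had 4.06 from TCDD and -0.24 from corn oil, Fmo1 -3.32 and -0.42, Neu1 2.20 and -0.28, Ahr 2.15 and -0.28, and Pmm1 1.94 and 0.08.

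Under 4 other references and centrings, 6 gaps stayed at least 2-fold above 0 (Ahr, Ahrr, Cmkor1, Neu1, Pmm1 and Srxn1) and 6 below (Fdft1, Fmo1, Ghr, Hagh, Inmt and Mug1). Over those settings the gap of Cmkor1 ran from 3.30 to 4.06 and that of Fmo1 from -4.22 to -3.32. For Aldh3a1 it ran from 0.03 to 6.03. Cyp1a2, which had the gap in the other direction among the strongly induced genes, was -1.75, with -0.92 from TCDD and -0.82 from corn oil.

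**Figure D2:**
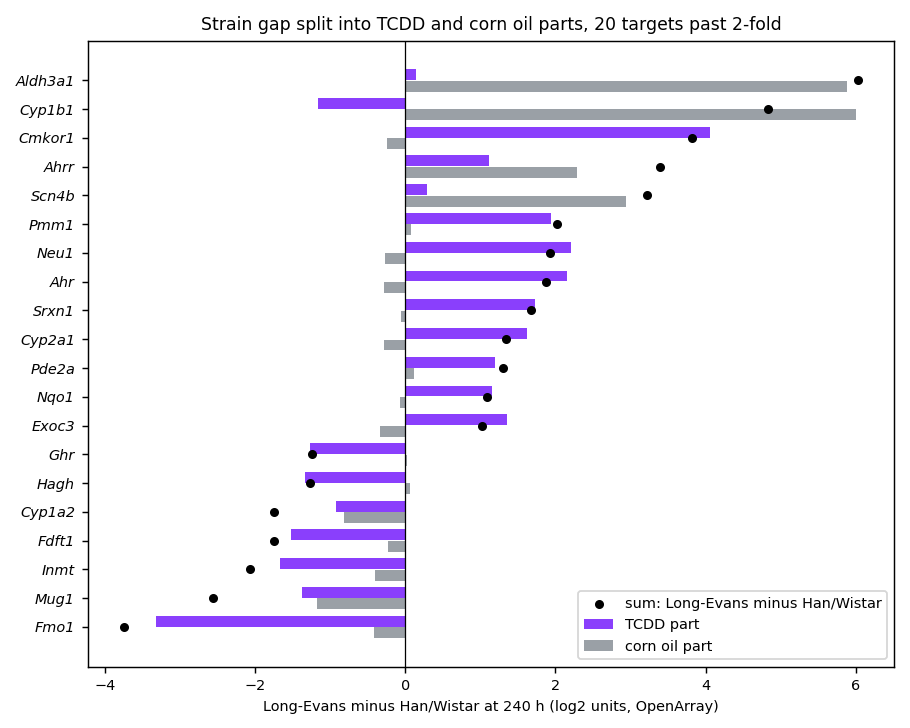
Strain gap at 240 h on the OpenArray in log2 units for the 20 targets past 2-fold, ordered by the gap. Purple bars are the TCDD part, grey bars the corn oil part, both relative to each strain's corn oil group at 19 h, and black points their sum; grey bars are long for Aldh3a1, Cyp1b1, Scn4b and Ahrr and short for Cmkor1, Fmo1, Neu1 and Ahr.

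On the OpenArray the corn oil groups moved less than 2-fold between 19 and 240 h for most targets. Against corn oil at 19 h, the 240 h corn oil group of Han/Wistar was past 2-fold higher for 5 of 49 targets (10.2%), namely Ahrr, Aldh3a1, Cyp1a1, Cyp1b1 and Scn4b, and lower for none (0.00%). In Long-Evans it was past 2-fold higher for 1 (2.04%), Inmt, and lower for 1 (2.04%), Aldh3a1. From 96 to 240 h in Long-Evans, 5 of 49 targets were past 2-fold lower in corn oil (10.2%) and 2 were higher (4.08%), Exoc3 and Inmt. Strongly induced targets could have steady corn oil values: those of Nqo1 spanned 0.47 in Han/Wistar and 0.20 in Long-Evans. The median change of a target between corn oil groups at 19 and 240 h was 0.27 in size in Han/Wistar and 0.16 in Long-Evans. The part of the OpenArray corn oil levels in the strain gaps of Aldh3a1, Cyp1b1, Scn4b and Ahrr is given above, and their origin was not tested.

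From 96 h to 240 h the difference changed at least 2-fold upward for 9 of 49 targets in Long-Evans (18.4%) and downward for 5 (10.2%). In Han/Wistar it changed upward for 2 (4.08%), Nqo1 and Tiparp, and downward for 5 (10.2%). Of the 14 changes in Long-Evans, 6 were mostly a move of the corn oil group (Ahrr, Aldh3a1, Cyp1a1, Cyp1b1, Exoc3 and Scn4b). Aldh3a1 went from 8.37 to 14.10, of which 5.14 was corn oil, Cyp1b1 from 9.08 to 13.22, of which 3.73 was corn oil, and Scn4b from 8.37 to 11.45, of which 2.59 was corn oil. In the other 8 the TCDD group moved. Fmo1 went from -2.63 to -5.53, Cmkor1 from 4.36 to 6.38, Fdft1 from -0.58 to -2.17, Mug1 from -0.87 to -2.00 and Srxn1 from 0.94 to 2.18. Cyp1a2 was smaller at 240 h than at 96 h in both strains, 2.76 against 3.99 in Long-Evans and 4.51 against 5.64 in Han/Wistar. In Han/Wistar, Nqo1 went from 3.31 to 4.55, Tiparp from 1.77 to 3.03 and Exoc3 from 2.95 to 1.79.

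Few targets passed 2-fold at 240 h that had not at the earlier times. In Long-Evans, 36.7% of targets had been past 2-fold higher and 8.16% lower at 19 h, and 46.9% and 14.3% at 96 h. In Han/Wistar these shares were 30.6% and 6.12% at 19 h, and 42.9% and 2.04% at 96 h. In Long-Evans, 3 were past 2-fold higher at 240 h and neither at 19 nor at 96 h (Bbs2, Derl1 and Srxn1), and 3 lower (Fdft1, Ghr and Mug1). In Han/Wistar there was no such target higher, and 3 were lower (Fmo1, Glud1 and Ivns1abp). Of these 9 cases, Fdft1, Ghr, Mug1 and Srxn1 in Long-Evans and Fmo1 in Han/Wistar were at least 1.5 in size. At 384 h, for which Han/Wistar alone was analysed here, Fmo1 was at -2.16 and Glud1 at -1.18, and Ivns1abp had come back to -0.65.

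**Figure D3:**
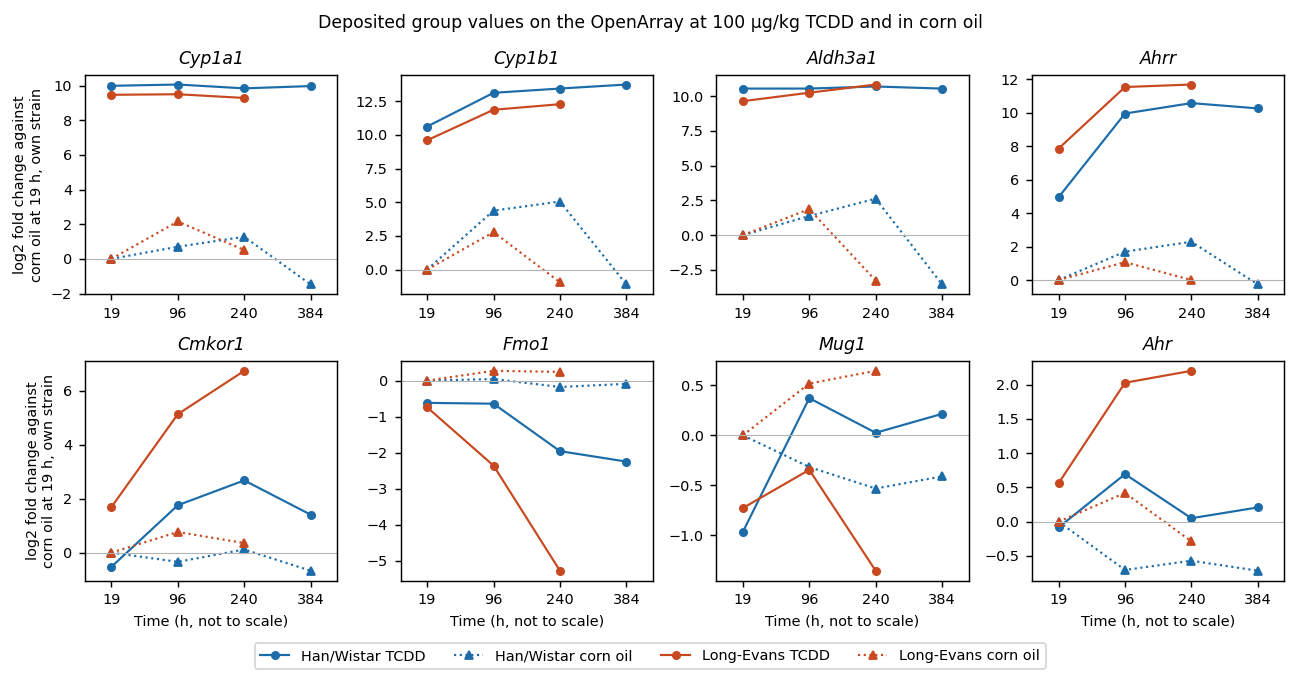
The authors' deposited OpenArray values (log2 fold change against the strain's own corn oil group at 19 h) at 19, 96, 240 and 384 h for 8 genes, with time as categories. Solid lines with circles are 100 µg/kg TCDD and dotted lines with triangles corn oil, blue for Han/Wistar and red for Long-Evans. The TCDD lines of Cyp1a1 and Aldh3a1 lie close together. The corn oil lines of Aldh3a1 are far apart at 240 h, and those of Cyp1a1 cross between 96 and 240 h. The Long-Evans TCDD lines of Cmkor1, Fmo1 and Ahr lie apart from all others at 240 h.

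The late response was also set against the dose groups at 19 h, 8 doses from 0.001 to 1000 µg/kg in Long-Evans and 8 from 0.001 to 3000 µg/kg in Han/Wistar. In Long-Evans, 14 of 49 targets at 240 h lay at least 2-fold above the highest of the 8 dose groups and 4 at least 2-fold below the lowest (Fdft1, Fmo1, Hagh and Inmt). In Han/Wistar 4 lay above (Ahrr, Cmkor1, Mug1 and Scn4b) and 0 below. Fmo1 in Long-Evans was -5.53 at 240 h, while its lowest dose group at 19 h was -1.52. Cmkor1 was 6.38, while its highest dose group was 1.69, and Ahr was 2.49 against 0.56. Cyp1a1 lay inside its dose range in both strains, where the highest dose group was 9.47 in Long-Evans and 9.99 in Han/Wistar. For Mug1 in Han/Wistar, every dose group at 19 h was negative (-1.99 to -0.58) and the 240 h value was 0.56. All of these differences at 19 h share 1 corn oil group in each strain.

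**Figure D4:**
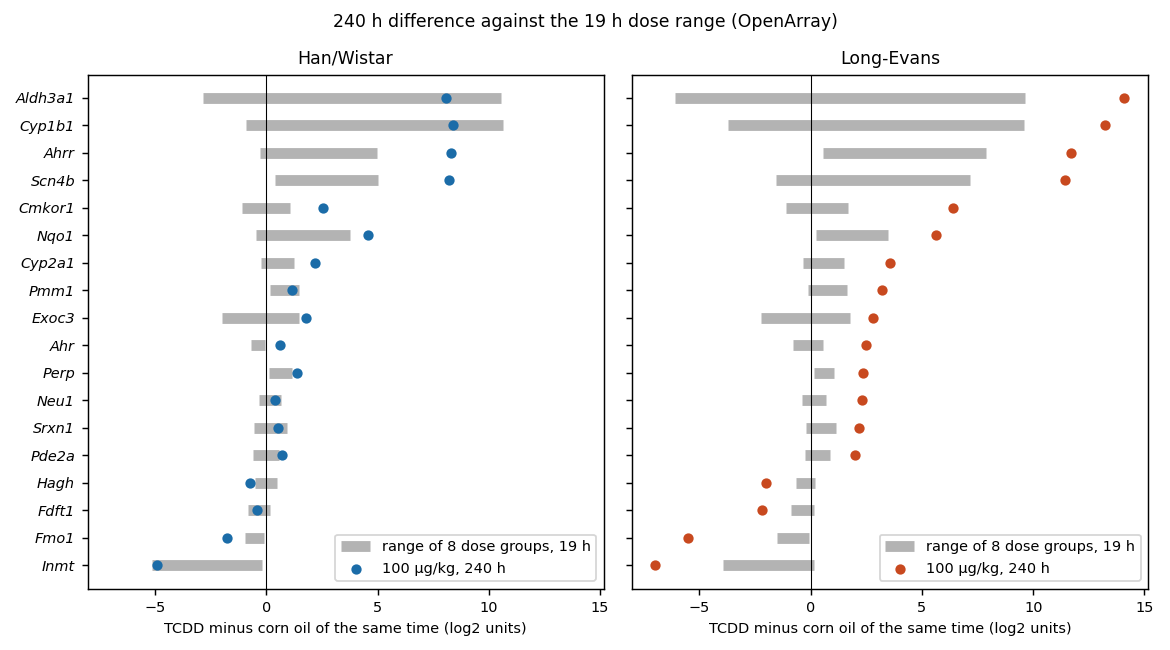
TCDD minus corn oil of the same time, in log2 units on the OpenArray, for the 18 targets whose 240 h value in Long-Evans was at least 2-fold outside the 19 h dose groups. Grey bars span the 8 dose groups at 19 h and points are 100 µg/kg at 240 h. By this choice of targets every Long-Evans point is outside its bar, so the panels do not compare the strains. Many Han/Wistar points lie inside or near their bars. Targets outside the bar in Han/Wistar alone, such as Mug1, are not shown.

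The 7900HT gave the same direction for most targets that were past 2-fold on the OpenArray. In Long-Evans, 20 of 21 shared targets past 2-fold higher on the OpenArray were above 0 on the 7900HT, and 5 of 5 lower ones were below 0. In Han/Wistar it was 12 of 14 and 4 of 4, with Eml4 (-0.07) and Perp (-0.69) as the exceptions. Targets past 2-fold in neither direction on the OpenArray matched less. In Han/Wistar 12 of 19 such targets had the same sign on the 7900HT, and in Long-Evans 6 of 12. Of those 19 in Han/Wistar, 14 were past 2-fold on the 7900HT, 4 of them the opposite way (Cyb5a, Pde2a, Pomp and Uvrag). On the 7900HT alone, 19 of 39 targets were past 2-fold higher (48.7%) and 9 lower (23.1%) in Long-Evans, and 18 of 38 higher (47.4%) and 13 lower (34.2%) in Han/Wistar. Its corn oil groups spanned more: 17 of those 31 Han/Wistar targets and 7 of the 28 Long-Evans targets did not exceed their own corn oil range.

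For single genes the platforms were close for some and far apart for others. In Long-Evans, Cmkor1 differed by 6.50 on the 7900HT, Fmo1 by -6.05, Nqo1 by 6.14, Cyp1a1 by 8.97 and Cyp1b1 by 13.14, and none of these was 2-fold away from its OpenArray value. Aldh3a1 differed by 2.46 on the 7900HT against 14.10 on the OpenArray. Ahrr differed by -6.06 against 11.68, so its direction in Long-Evans was not shared, and no Han/Wistar difference at 240 h could be computed for it on the 7900HT because 1 of the values was blank. Across shared targets, the platforms' differences correlated with Pearson's r of 0.86 and Spearman's rho of 0.80 in Han/Wistar (37 targets) and 0.63 and 0.83 in Long-Evans (38 targets). These are descriptions over targets that share the same livers.

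The strain gap carried over less. Its correlation between the platforms was 0.32 (Pearson) and 0.39 (Spearman) over 37 targets. Of 10 shared targets with a gap at least 2-fold above 0 on the OpenArray, 8 had a gap above 0 on the 7900HT, where Aldh3a1 was at -4.59 and Srxn1 at -0.97. All 4 shared gaps below 0 kept their sign (Cyp1a2 -3.39, Fmo1 -3.08, Inmt -2.43 and Ghr -1.60). Cmkor1 had a gap of 5.41, Neu1 2.54 and Pde2a 2.99, while Ahr (0.15) and Pmm1 (0.08) had gaps near 0 there. On the 7900HT Ahr differed by 1.94 in Long-Evans; in Han/Wistar it differed by 1.79, and was -1.54 against corn oil at 19 h. Arnt, the partner of AHR, was measured on that platform alone and differed by -0.64 in Long-Evans; in Han/Wistar it differed by 1.09, and was -0.40 against corn oil at 19 h.

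The 7900HT targets came in sets with 4 and with 2 rows of cycle values per gene, which moved apart in Han/Wistar. The median Han/Wistar difference was 3.09 over 13 genes with 4 rows and -0.93 over 25 genes with 2 rows. On the OpenArray the genes of the same sets had medians of 2.48 and 0.37. In Long-Evans the 7900HT medians were 2.20 and 0.53. Of the 13 Han/Wistar targets past 2-fold lower on the 7900HT, 12 were of the 2-row set, and the part of the row set in these values was not tested.

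**Figure D5:**
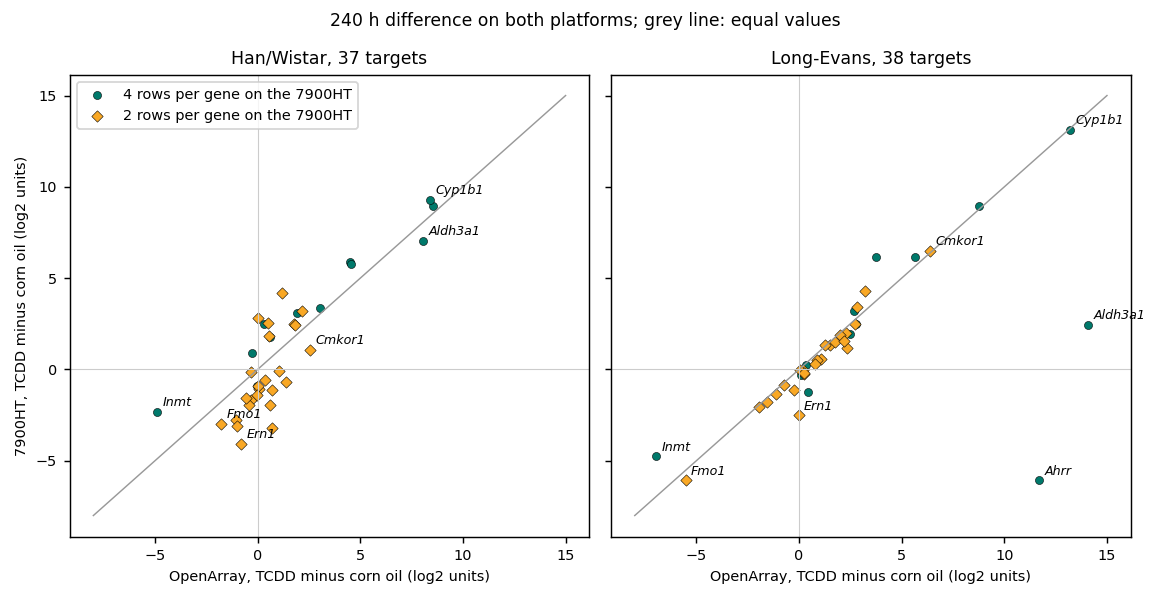
TCDD minus corn oil at 240 h on the 7900HT against the OpenArray, in log2 units, for the shared targets, 37 of them in Han/Wistar and 38 in Long-Evans. Circles have 4 rows per gene on the 7900HT and diamonds 2, and the grey line marks equal values; many Han/Wistar diamonds lie below the line, and Ahrr and Aldh3a1 lie far below it in Long-Evans.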

How the data were processed

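Per the labels' protocols, cDNA of liver RNA was assayed by real-time PCR, on 1 of 2 instruments (OpenArray and 7900HT). The authors deposited, for each platform, 1 value per target, strain, time and dose on a log2 scale, relative to the strain's own corn oil group at 19 h, for which every target is 0. That the log base is 2 is inferred from the table, not stated in the sources used here. R 2.12.2 is named in the submitters' processing notes. The tables of cycle values hold 304 columns of animal codes that match no sample label and were not used, except for gene names, from which the rows per gene were counted. The depth of a PCR value is unknown from these files.

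With Python 3.11.15, numpy 2.4.6 and pandas 2.3.3, the corn oil value of the same strain and time was subtracted. Differences of at least 1 (2-fold) were counted. With 1 value per group no test was possible, whatever was planned. The counting code was run on simulated data with planted differences and no noise between the groups. That run checks the code and not how spread would affect the counts. All 50 targets are members, so each could be named; those described in full are the AHR lists and the largest differences, gaps and changes. Roles were assigned to every target, and the members and lists were chosen with earlier results of these data known. An ending was removed from 4 gene names. Symbols were matched to RefSeq (GRCr8), where 47 of 50 were current.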

Additional observations from a re-analysis of the deposited data

Results flagged for a closer look

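Results were singled out where the 2 strains went opposite ways after TCDD at 240 h, by a different rule on each platform. This difference between strains was not tested, because each group has 1 deposited value. On the OpenArray the rule was opposite signs with a strain gap past 2-fold, and other targets with opposite signs had smaller gaps. Mug1, the plasma protease inhibitor, was singled out, with a strain gap of -2.56 log2 units. Its Han/Wistar difference was not past 2-fold. Centring on the mean, which lowered every Han/Wistar OpenArray difference by 1.00, put that of Mug1 at -0.44, on the side of Long-Evans. Against corn oil at 19 h it was 0.03. On the 7900HT, 4 targets were past 2-fold in opposite directions. Col18a1, the collagen that holds the endostatin sequence, had a gap of -3.96 and Cyp2s1, a P450, of -3.74, both higher in Han/Wistar and lower in Long-Evans. Pde2a had a gap of 2.99 and Uvrag of 3.29, both the other way round. On the OpenArray none of these 4 was past 2-fold in Han/Wistar, and the 7900HT differences of all 4 in Long-Evans were no larger than the range of that platform's corn oil groups.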

How the results depend on the processing

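No paired analysis was possible because the authors' tables hold 1 value per group; for the same reason no animal could be left out in turn, and no fit of a spread was run. What was tried is another corn oil reference, centring, another fold and, on the 7900HT, centring the sets with 4 and 2 rows per gene apart. Counts of targets that moved by over 1.5 times were as follows. On the OpenArray, Han/Wistar lower targets were 7 against corn oil at 19 h, and 8 after centring on the median. After centring on the mean, Han/Wistar had 11 higher and 16 lower, and Long-Evans 15 and 22. On the 7900HT, centring on the median gave 11 higher and 17 lower in Long-Evans, and gaps of 7 above and 18 below; the mean gave 9 and 18 in Long-Evans. With the row sets apart, Long-Evans had 12 higher, and gaps were 8 above and 14 below. At 1.5-fold, the OpenArray had 8 lower in Han/Wistar and 23 gaps above 0. At 4-fold it had 11 higher and 1 lower in Han/Wistar, 4 lower in Long-Evans, and 6 gaps above and 3 below. At 4-fold the 7900HT had 6 lower in Han/Wistar, 11 higher and 5 lower in Long-Evans, and 8 gaps above. Outside the range of all corn oil groups, with no fold limit, lay 30 higher and 12 lower OpenArray targets in Han/Wistar.

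Of the values past 2-fold as reported, those that changed sign were these, while smaller values also crossed 0. On the OpenArray the Cyp1b1 gap was -1.16 against corn oil at 19 h and -0.23 against the mean of the corn oil groups, and centring on the mean put Bbs2 at -0.24, Derl1 at -0.39 and Uvrag at -0.21 in Long-Evans. On the 7900HT, against corn oil at 19 h, Ahr was -1.54 and Arnt -0.40 in Han/Wistar, Col18a1 1.18 and Uvrag -0.36 in Long-Evans, and the gaps of Cyp1b1 and Tiparp -0.93 and -0.47. Against the mean of the corn oil groups, Ahr was -0.10 and Arnt -0.22 in Han/Wistar, Col18a1 0.84 and Uvrag -0.17 in Long-Evans, and the Aldh3a1 gap 1.61. Centring on the median put Perp in Long-Evans at -0.0757. Centring on the mean put Arnt and Cmkor1 in Han/Wistar at -0.0317 each, and Eml4 at -0.15, Perp at -0.31 and Uvrag at -0.18 in Long-Evans. With the row sets centred apart, Han/Wistar had Ahr at -1.66, Arnt -2.36, Cyp2s1 -0.96, Nfe2l2 -0.36 and Tiparp -0.079, Long-Evans had Ahr at -0.90, Aldh3a1 -0.38 and Cyp1a2 -0.33, and the Eml4 gap was -0.0441. The cause was not tested for any of these.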
